A study of Mus musculus with 4 samples.

Results

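Peroxisomes are small organelles, abundant in the proximal tubule of the kidney, that shorten very long and branched fatty acids, begin the synthesis of ether lipids and oxidise hydroxy acids and D-amino acids with release of hydrogen peroxide. The set described here holds 33 genes chosen by symbol, 13 peroxins, 15 enzymes and 5 other membrane proteins, out of 29190 genes in the deposited count table. All 33 had 1 row each, and all 33 passed the filter on low counts. The animals were male C57 mice of 8 weeks. One group had received cisplatin, a platinum-based anticancer drug that damages DNA and is toxic to renal tubules, at 30 mg/kg, and its comparison group had received physiological saline. The kidneys gave 2 libraries per group, which the design text calls biological replicates of these 2 groups, and the treatment protocol, which counts 3 groups, gives 24 h and 48 h as the times of killing without saying which one the cisplatin libraries come from. Whether a library pooled several of the 18 mice is not given, so p-values describe the spread between libraries. Library totals ran between 20662475 and 27122403 counts.

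Peroxins build the organelle. Some insert its membrane proteins, others receive folded enzymes in the cytosol by short targeting signals, pass them through a docking complex in the membrane, and are then ubiquitinated and pulled out again for another round. The enzymes inside do the metabolic work, with substrates brought in by transporters of the ATP-binding cassette family. In kidney the oxidases and the enzymes of fatty acid breakdown are best known from proximal tubule cells, whereas peroxins are needed in nearly every cell type.

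The enzyme transcripts were far lower after cisplatin, and the peroxin transcripts were lower by much less. Of the 33 genes 27 fell, 1 rose and 5 did not pass (edgeR quasi-likelihood test, Benjamini-Hochberg adjusted p under 0.05 over 17419 genes). Over all tested genes, 36.4% fell and 37.2% rose by the same rule, 73.6% in either direction. Among the enzymes 13 of 15 fell, 12 of them at least 2-fold, and the 15 had a median log2 fold change of -1.61. Among the peroxins 10 of 13 fell and the median was -0.54, with a fall of 2-fold or more in Pex7 and Pex14, 2 of the 13. At least a 2-fold fall was met by 16.1% of all tested genes, whose median log2 fold change was 0.04. The median of the peroxins thus lay 1.07 above that of the enzymes on the log2 scale, a description for which no test was made, because genes are not replicates. The groups did not overlap in any of the 33 genes, nor did they in 86.3% of all tested genes. In bulk tissue fewer cells of a type and less RNA per cell cannot be told apart, for these genes and all others. Of the 33 genes 12 share annotated exon bases with another gene, and the 4 largest of these overlaps, with some smaller ones, are given beside the gene.

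**Figure D1:**
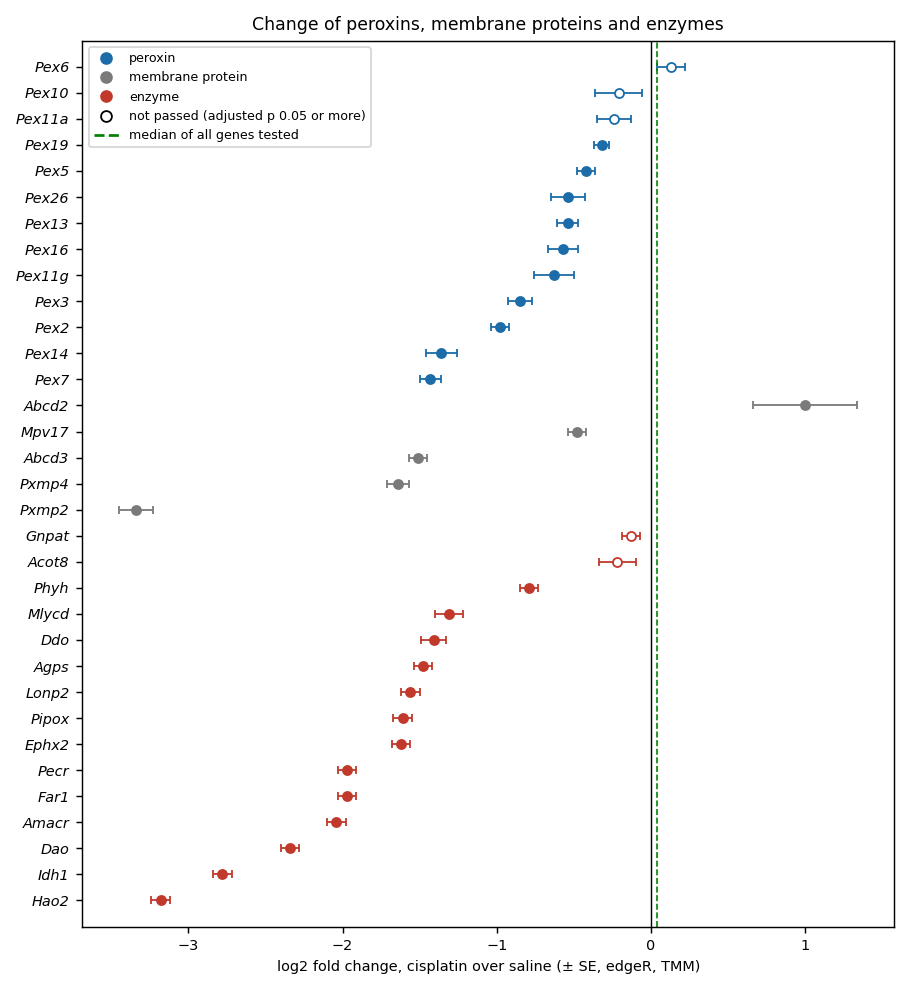
Log2 fold change of each gene, cisplatin over saline, with its standard error, grouped as peroxins, membrane proteins and enzymes. Open circles did not pass the edgeR test, the solid line is 0 and the dashed line is the median of all genes tested, 0.04. The peroxins spread between -1.43 and 0.13 and the enzymes between -3.18 and -0.13.

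A rescaling moves all genes alike, so it left the gap between both classes in place, whereas the number of peroxins called lower depended on it. Values are CPM, counts as a share of library size, scaled by TMM, the trimmed mean of M values, with which 6487 genes were higher and 6333 lower. With library size alone 9110 were higher and 4207 lower, the median of all genes stood at 0.41, and only 5 of 13 peroxins passed as lower while 1 passed as higher. The enzymes passed as lower in 13 of 15 cases under both scalings. With library size alone the medians were -0.17 for the peroxins and -1.24 for the enzymes, again 1.07 apart. Relative to the median of all genes, 12 of 13 peroxins and all 15 enzymes lay below it with TMM, with upper-quartile scaling and with library size alone. The same holds for the FPKM values (fragment counts scaled by transcript length and library size) with a pseudocount of 0.1, and with a pseudocount of 1 the numbers were 11 of 13 and 13 of 15. None of these scales would show a shift common to every transcript.

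**Figure D2:**
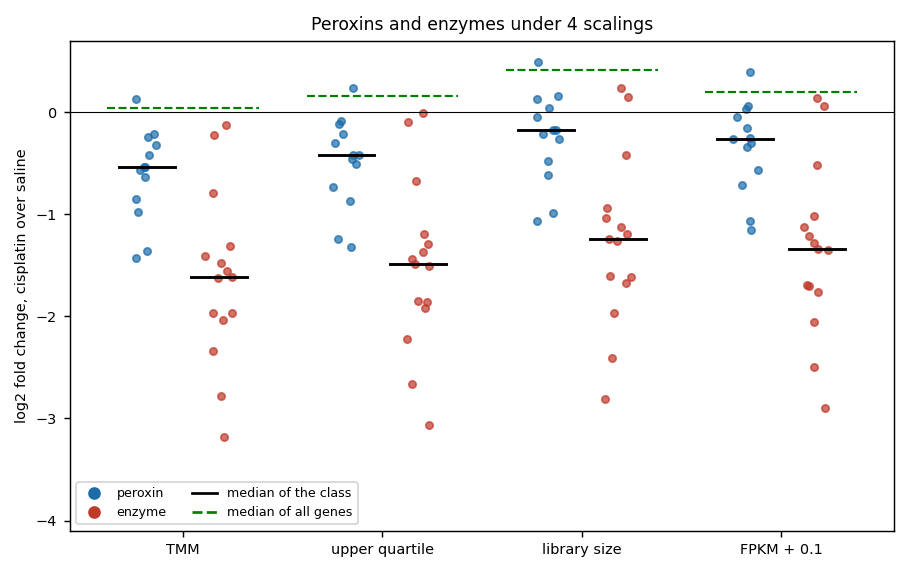
Log2 fold changes of the 13 peroxins (left of each pair) and the 15 enzymes (right) under 4 scalings, 1 point per gene, with the class median as a black line and the median of all genes as a dashed line. The class medians move together, from -0.54 and -1.61 with TMM to -0.17 and -1.24 with library size alone.

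A ratio within a library is free of this scaling, and gene length cancels when the same ratio is compared between groups. Per count of the 13 peroxins there were 3.77 and 3.71 counts of the 15 enzymes in the cisplatin libraries, against 8.38 and 8.52 in the saline libraries. In FPKM, which corrects for transcript length, the summed enzyme level was 4.45 and 4.36 times the summed peroxin level after cisplatin, against 9.11 and 9.27 times after saline. The groups did not overlap in either ratio. With 2 against 2 libraries a two-sided exact permutation test cannot go below 0.333, so ratios are given as values only.

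**Figure D3:**
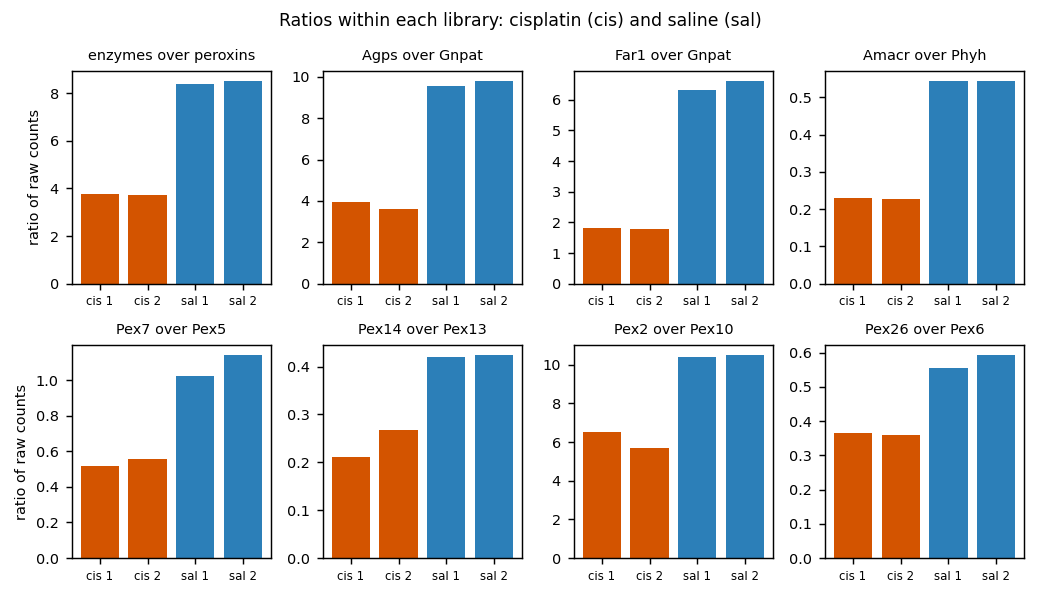
Ratios of raw counts within each library for the summed enzymes over the summed peroxins and for pairs of genes that act together, with cisplatin libraries (cis) left of saline libraries (sal) and every axis starting at 0. In each panel both cisplatin libraries lie under both saline libraries. Each gene pair has the gene with the lower log2 fold change on top, so the shared direction of these panels follows from that order.

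Membrane protein insertion rests on Pex19, the cytosolic chaperone of peroxisomal membrane proteins, on Pex3, its dock in the membrane, and on Pex16, which brings Pex3 there. Pex3 had 26.1 and 25.0 CPM in the cisplatin libraries, against 47.6 and 44.6 CPM in the saline libraries. Its log2 fold change was -0.85 (SE 0.08, adjusted p = 8.2e-09). Pex16 stood at 15.3 and 17.2 CPM in the cisplatin libraries, against 24.6 and 23.8 CPM in the saline libraries, with a log2 fold change of -0.57 (SE 0.10, adjusted p = 3.22e-05) that did not pass with library size alone or with FPKM. Pex19 had 88.7 and 88.7 CPM in the cisplatin libraries, against 112.7 and 109.5 CPM in the saline libraries. Its difference of -0.32 (SE 0.05, adjusted p = 2.48e-05) was small, and with library size alone it was 0.04 (adjusted p = 0.577). The order of the changes within this trio was thus Pex3, Pex16 and Pex19, and the ratio of Pex3 to Pex19 counts was 0.295 and 0.282 after cisplatin against 0.423 and 0.408 after saline.

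The receptors of matrix enzymes had unlike values. Pex7 recognises an amino-terminal signal carried by few enzymes, among them Agps and Phyh, and Pex5 recognises the common carboxy-terminal signal and also carries Pex7 to the membrane. Pex7 (ENSMUSG00000020003.13, chromosome 10, 19853900 to 19907689, minus strand, GRCm38) had 27.4 and 27.1 CPM in the cisplatin libraries, against 70.3 and 76.4 CPM in the saline libraries. With a log2 fold change of -1.43 (SE 0.07, adjusted p = 3.75e-13) it had the lowest value of the 13 peroxins. Pex5 had 52.9 and 48.8 CPM in the cisplatin libraries, against 68.8 and 67.2 CPM in the saline libraries, and its log2 fold change was -0.42 (SE 0.06, adjusted p = 7.11e-06). Under library size alone Pex5 stood at -0.05 (adjusted p = 0.534), whereas Pex7 remained at -1.07 or lower under every alternative tried. The ratio of Pex7 to Pex5 counts was 0.517 and 0.555 after cisplatin and 1.02 and 1.14 after saline.

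A similar contrast was seen in the docking complex, where Pex14 is the entry point for loaded receptors and Pex13 its partner in the membrane. Pex14 had 10.3 and 12.0 CPM in the cisplatin libraries, against 27.7 and 29.4 CPM in the saline libraries, a log2 fold change of -1.36 (SE 0.10, adjusted p = 4.59e-10). Pex13 had 48.8 and 44.8 CPM in the cisplatin libraries, against 66.1 and 69.4 CPM in the saline libraries, a log2 fold change of -0.54 (SE 0.07, adjusted p = 4.43e-07) that with FPKM did not pass (-0.26, limma adjusted p = 0.145 with a pseudocount of 0.1). Per count of Pex13 there were 0.211 and 0.268 counts of Pex14 after cisplatin and 0.419 and 0.424 after saline. An antisense gene, Gm17029, shares 1776 annotated exon bases with Pex14. The libraries were directional, but whether counting used strand is not given, so reads over the shared bases cannot be told apart.

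Pex2 and Pex10 belong to the RING complex that ubiquitinates the receptor, and Pex6 is an ATPase of the motor that extracts it, anchored to the membrane by Pex26. Pex2 fell to 42.6 and 39.3 CPM in the cisplatin libraries, against 82.6 and 79.4 CPM in the saline libraries, a log2 fold change of -0.98 (SE 0.06, adjusted p = 3.38e-11). Pex10, at 6.54 and 6.9 CPM in the cisplatin libraries, against 7.95 and 7.58 CPM in the saline libraries, did not pass (log2 fold change -0.21, SE 0.15, adjusted p = 0.211). With library size alone the sign for Pex10 was positive, again without passing. Pex6 was the single peroxin with a value above 0, at 29.6 and 30.1 CPM in the cisplatin libraries, against 28.4 and 26.3 CPM in the saline libraries. Its log2 fold change of 0.13 (SE 0.09, adjusted p = 0.188) did not pass with TMM, although it passed as higher with upper-quartile scaling (0.24, adjusted p = 0.0158), with library size alone (0.49) and with FPKM (0.39 with a pseudocount of 0.1). Pex26, the anchor of Pex6, had 10.8 and 10.8 CPM in the cisplatin libraries, against 15.8 and 15.6 CPM in the saline libraries, a log2 fold change of -0.54 (SE 0.11, adjusted p = 0.000225), which did not pass with library size alone (adjusted p = 0.192). Counts of Pex26 per count of Pex6 were 0.365 and 0.36 after cisplatin and 0.556 and 0.593 after saline.

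Elongation and division of peroxisomes involve the Pex11 family, of which Pex11a is induced by peroxisome proliferators in rodents. Pex11a had 14.4 and 15.9 CPM in the cisplatin libraries, against 18.8 and 17.1 CPM in the saline libraries. Its log2 fold change of -0.24 (SE 0.11, adjusted p = 0.0509) lay just outside the threshold, and it passed as lower with size factors by relative log expression (adjusted p = 0.0373). Pex11a also passed as lower without cisplatin replicate 2 (adjusted p = 0.041) and without saline replicate 2 (0.0315), while with library size alone it stood at 0.13 (adjusted p = 0.303). Pex11g had 7.13 and 7.71 CPM in the cisplatin libraries, against 11.4 and 11.6 CPM in the saline libraries, a log2 fold change of -0.63 (SE 0.13, adjusted p = 0.000237) that did not pass with library size alone or with FPKM. The gene Gm44775 shares 1396 exon bases with Pex11g on the opposite strand. The Pex11g groups stood further apart than those of Pex11a, at 64.7% of the saline level against 84.8%.

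**Figure D4:**
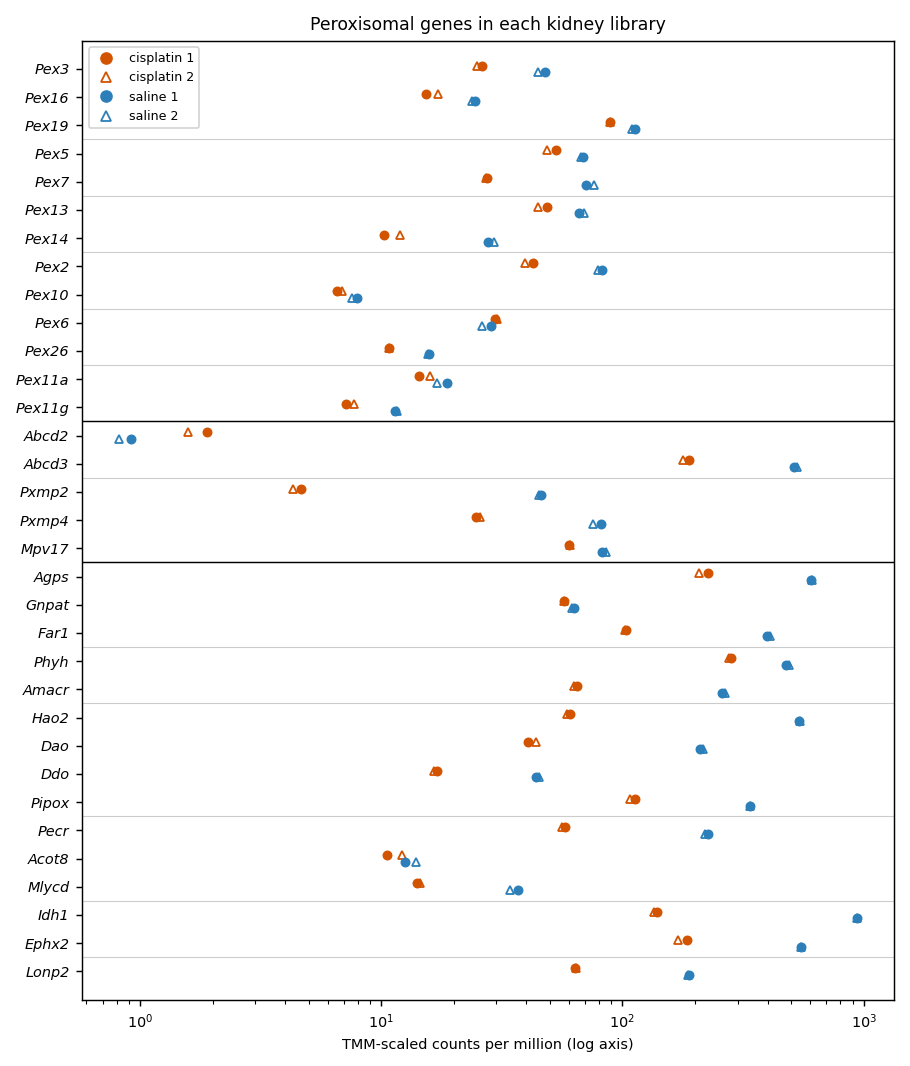
TMM-scaled CPM (log axis) of the 33 genes in each of the 4 libraries, with peroxins at the top, membrane proteins in the middle and enzymes at the bottom, and grey lines between roles. Circles and triangles are replicates 1 and 2. Cisplatin points lie left of saline points in all rows but Pex6 and Abcd2.

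The 5 other membrane proteins held both extremes of the set. Pxmp2 (ENSMUSG00000029499.9, chromosome 5, 110274282 to 110286186, minus strand, GRCm38), a channel-forming protein of the peroxisomal membrane, had 4.64 and 4.32 CPM in the cisplatin libraries, against 45.8 and 45.2 CPM in the saline libraries. The cisplatin level was 9.84% of the saline level, a log2 fold change of -3.34 (SE 0.11, adjusted p = 4.21e-16) and the lowest of the 33 genes, with 0.913% of all tested genes lower still. Pxmp4, another integral membrane protein, had 24.7 and 25.8 CPM in the cisplatin libraries, against 81.3 and 75.6 CPM in the saline libraries (log2 fold change -1.64, SE 0.07). Abcd3, which imports branched-chain and bile acid intermediates as CoA esters, had 188.1 and 178.9 CPM in the cisplatin libraries, against 514.4 and 529.8 CPM in the saline libraries, a log2 fold change of -1.51 (SE 0.06, adjusted p = 1.12e-14).

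Abcd2, a transporter of very long-chain acyl-CoA esters, was the only one of the 33 genes called higher, and its level was very low. Its raw counts were 45 and 41 after cisplatin and 17 and 20 after saline. In scaled units this was 1.9 and 1.58 CPM in the cisplatin libraries, against 0.92 and 0.82 CPM in the saline libraries, a log2 fold change of 1.00 (SE 0.34, adjusted p = 0.0119). Without cisplatin replicate 1 (adjusted p = 0.11), without saline replicate 2 (0.0591) and with DESeq2 (0.0899) it did not pass. Mpv17, first described in peroxisomes and now placed in the mitochondrial inner membrane, had 59.8 and 60.5 CPM in the cisplatin libraries, against 82.0 and 85.3 CPM in the saline libraries. Its log2 fold change was -0.48 (SE 0.06, adjusted p = 2.96e-07), or -0.11 (adjusted p = 0.159) with library size alone. Mpv17 shares 463 of its 3214 annotated exon bases with Gm29609 on the same strand, and reads over the shared bases cannot be separated.

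Ether lipid synthesis begins in peroxisomes, where Gnpat acylates dihydroxyacetone phosphate and Agps exchanges the acyl chain for a fatty alcohol supplied by Far1, an enzyme of the outer membrane face. Far1 had 103.5 and 102.8 CPM in the cisplatin libraries, against 399.0 and 410.5 CPM in the saline libraries, a log2 fold change of -1.97 (SE 0.06, adjusted p = 2.27e-16). Agps had 225.9 and 207.8 CPM in the cisplatin libraries, against 604.6 and 608.0 CPM in the saline libraries, a log2 fold change of -1.48 (SE 0.06, adjusted p = 1.94e-14). Gnpat, which forms a complex with Agps, had 57.0 and 57.5 CPM in the cisplatin libraries, against 63.1 and 62.0 CPM in the saline libraries and did not pass (log2 fold change -0.13, SE 0.06, adjusted p = 0.0645). The sign for Gnpat depended on the scaling, since it was called higher with library size alone (0.24, adjusted p = 0.00373) and lower with size factors by relative log expression (-0.14, adjusted p = 0.041). Within the libraries the contrast was plain. Counts of Agps per count of Gnpat were 3.96 and 3.62 after cisplatin, against 9.58 and 9.81 after saline, and those of Far1 per count of Gnpat were 1.82 and 1.79 against 6.32 and 6.62. Gnpat shares 280 exon bases with Gm16163 on its own strand and 88 with 2810004N23Rik on the opposite strand.

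Phytanic acid and other branched fatty acids are handled by Phyh, the hydroxylase of alpha-oxidation, and by Amacr, a racemase shared with mitochondria. Phyh (ENSMUSG00000026664.7, chromosome 2, 4919019 to 4938730, plus strand, GRCm38) had 282.7 and 276.8 CPM in the cisplatin libraries, against 474.7 and 491.8 CPM in the saline libraries. Its log2 fold change of -0.79 (SE 0.06, adjusted p = 1.79e-10) was the smallest among the enzymes that passed. Amacr had 64.7 and 63.1 CPM in the cisplatin libraries, against 258.4 and 267.2 CPM in the saline libraries, a log2 fold change of -2.04 (SE 0.06, adjusted p = 1.39e-16). Counts of Amacr per count of Phyh were 0.229 and 0.228 after cisplatin and 0.544 and 0.543 after saline. Hacl1, the lyase that follows Phyh in the pathway, fell to 16.2 ± 0.0305 CPM after cisplatin, against 108.6 ± 0.0936 CPM after saline (SD, n = 2 each; log2 fold change -2.75, SE 0.07). Phyh and Hacl1, acting in sequence, thus had changes of -0.79 and -2.75 on the log2 scale.

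The 4 flavin oxidases, which pass electrons to oxygen and release hydrogen peroxide, all fell at least 2-fold. Hao2 (ENSMUSG00000027870.8, chromosome 3, 98874521 to 98893239, minus strand, GRCm38), an oxidase of long-chain 2-hydroxy acids found mainly in kidney and liver, had 60.6 and 58.8 CPM in the cisplatin libraries, against 538.1 and 542.2 CPM in the saline libraries. At a log2 fold change of -3.18 (SE 0.06, adjusted p = 6.04e-19) it had the lowest value of the 15 enzymes, and 1.11% of all tested genes lay lower. Dao, the D-amino acid oxidase, had 40.5 and 43.8 CPM in the cisplatin libraries, against 209.4 and 216.7 CPM in the saline libraries, a log2 fold change of -2.34 (SE 0.06, adjusted p = 3.35e-17). Pipox, which oxidises pipecolic acid and sarcosine, had 112.6 and 107.8 CPM in the cisplatin libraries, against 337.0 and 336.5 CPM in the saline libraries (log2 fold change -1.61, SE 0.06). Ddo, the D-aspartate oxidase, had 17.0 and 16.5 CPM in the cisplatin libraries, against 43.8 and 44.9 CPM in the saline libraries (log2 fold change -1.41, SE 0.08). Summed over the 4 genes, the level was 230.7 and 226.8 CPM after cisplatin, against 1128.2 and 1140.4 CPM after saline. Catalase, encoded by Cat and the remover of the peroxide these enzymes make, stood at 374.9 ± 0.436 CPM after cisplatin and 1083.2 ± 30.2 CPM after saline (log2 fold change -1.53, SE 0.06), and was named here for that role after its values were seen.

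Among enzymes of acyl-CoA metabolism, Pecr, a reductase of trans-2-enoyl-CoA, had 57.9 and 56.2 CPM in the cisplatin libraries, against 226.8 and 220.2 CPM in the saline libraries, a log2 fold change of -1.97 (SE 0.06, adjusted p = 1.98e-16). Mlycd, the malonyl-CoA decarboxylase present in peroxisomes, mitochondria and cytosol, had 14.1 and 14.5 CPM in the cisplatin libraries, against 36.9 and 34.1 CPM in the saline libraries, a log2 fold change of -1.31 (SE 0.09, adjusted p = 1.43e-10). Acot8, a peroxisomal acyl-CoA thioesterase of broad specificity, had 10.6 and 12.2 CPM in the cisplatin libraries, against 12.5 and 13.9 CPM in the saline libraries and did not pass (log2 fold change -0.22, SE 0.12, adjusted p = 0.115). Acot8 stood at 0.15 with library size alone, again without passing, and shares 246 exon bases with Snx21 on the opposite strand. Acot8 and Gnpat were the enzymes that did not pass with TMM.

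Idh1, which makes NADPH from isocitrate in cytosol and peroxisomes, had 139.0 and 135.6 CPM in the cisplatin libraries, against 941.8 and 942.3 CPM in the saline libraries. The log2 fold change of Idh1 was -2.78 (SE 0.06, adjusted p = 1.24e-18), so that 14.6% of the saline level was left. Ephx2, the soluble epoxide hydrolase of the same compartments, had 185.3 and 170.6 CPM in the cisplatin libraries, against 547.8 and 548.7 CPM in the saline libraries, a log2 fold change of -1.62 (SE 0.06, adjusted p = 5.64e-15). Lonp2, the Lon protease of the peroxisomal matrix, had 63.3 and 64.1 CPM in the cisplatin libraries, against 187.9 and 186.6 CPM in the saline libraries, a log2 fold change of -1.56 (SE 0.06, adjusted p = 4.31e-15). All 3 lay within the range of the oxidases, -3.18 to -1.41.

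The order of transcript levels was compared by FPKM. In saline libraries Idh1 was highest of the 33 genes at 219 FPKM (mean, n = 2), before Phyh at 193, Ephx2 at 155 and Hao2 at 152. After cisplatin Phyh was highest at 135 FPKM, before Ephx2 at 60.6, Idh1 at 38.4 and Pipox at 38.2. In the single libraries Phyh had 137.45 and 132.2 FPKM after cisplatin, against 180.71 and 206.11 FPKM after saline. Idh1 had 39.23 and 37.6 FPKM after cisplatin, against 208.13 and 229.26 FPKM after saline. Idh1 lay above Phyh in both saline libraries and under it in both cisplatin libraries, while in saline Ephx2 (147.35 and 162.49 FPKM) and Hao2 (143.75 and 159.48 FPKM) had overlapping ranges. Hao2 took the 7th place after cisplatin, against the 4th in saline, with 20.69 and 19.7 FPKM, and Pxmp2 took the 29th place, against the 13th in saline, with 3.12 and 2.85 FPKM against 24.1 and 26.17 FPKM. The peroxins had a median of 7.83 FPKM after cisplatin and 9.4 FPKM after saline, and the enzymes had a median of 17.2 FPKM after cisplatin and 58.4 FPKM after saline.

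Genes with higher saline levels had the larger falls. Across the 33 genes Spearman's rho between the saline FPKM and the log2 fold change was -0.74, and within the classes it was -0.39 over the 13 peroxins and -0.60 over the 15 enzymes. These points share the same 4 libraries, and the saline level enters both axes. With the cisplatin FPKM in its place rho was -0.43, -0.15 and -0.38 over the same sets. In the saline libraries 11 of the 15 enzymes lay above the peroxin with the highest saline level (Pex2, 20.5 FPKM). The other 4, Gnpat, Ddo, Acot8 and Mlycd, lay within the range of the peroxins and had log2 fold changes of -0.13, -1.41, -0.22 and -1.31, a median of -0.76. The part of the level in the difference between the classes was not tested.

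**Figure D5:**
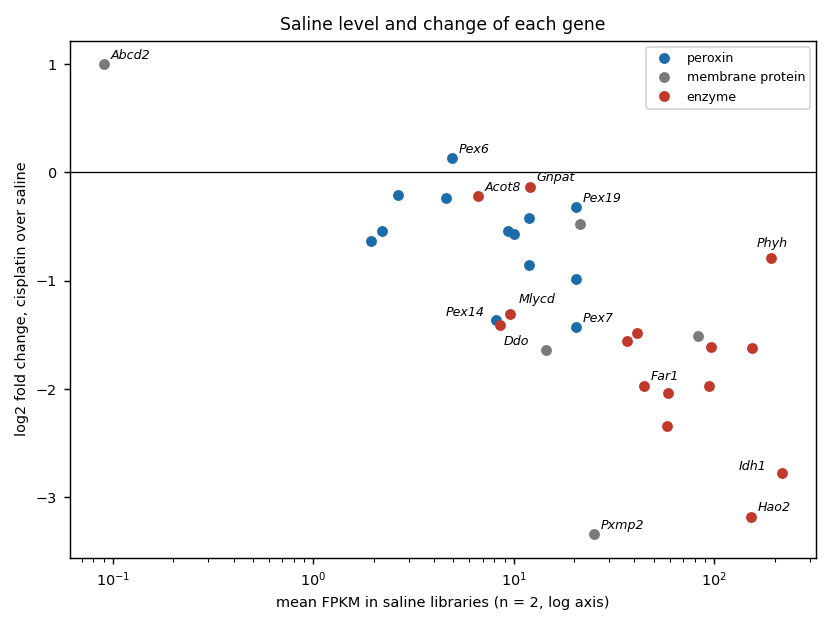
Mean FPKM in the saline libraries (n = 2, log axis) against the log2 fold change of each of the 33 genes, coloured by class. Enzymes at over 30 FPKM all lie under -0.7, and Phyh, at 193 FPKM, stands above the others of similar level.

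Peroxisomal genes outside the set, taken from lists by name, moved in the direction of the enzymes. In the list of peroxisomal beta-oxidation 19 of 22 genes fell, 1 rose and 2 did not pass. The median of this list was -1.53 on the log2 scale. The largest falls among genes of at least 5 CPM were those of Acox2, the oxidase of bile acid intermediates (18.4 ± 0.0315 CPM after cisplatin and 129.6 ± 4.23 CPM after saline), of Hacl1, and of Slc27a2, a very long-chain acyl-CoA synthetase and fatty acid transporter (660.8 ± 26.0 CPM after cisplatin and 4297.3 ± 126 CPM after saline). The gene that rose was Acot5, a thioesterase with close paralogs beside it, which had 48 and 32 counts after cisplatin and 0 in both saline libraries. Acot5 thus passed the filter on low counts through the cisplatin libraries alone. Taking 3 counts for both saline libraries together as its floor, it was at least 23-fold higher, and with Acot5 at this bound the median of the list was -1.54. In the list of other matrix enzymes 15 of 16 tested genes fell, none rose and Tysnd1 did not pass, with a median of -1.38. Far2, one of the 15, had 6 and 2 counts after cisplatin and 12 and 24 after saline. It passed the filter on low counts through the saline libraries alone, so its fall was nearly fixed by the filter. The list held 19 genes, of which Hao1 and Uox did not pass the filter and Agxt was not analysed here. Its largest falls among genes of at least 5 CPM were those of Ide, an insulin-degrading protease, at -2.04, the NADH pyrophosphatase gene Nudt12 at -1.73 and the dehydrogenase gene Dhrs4 at -1.65.

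Genes of division and tethering mostly fell. Of 8 genes 6 were lower, and Dnm1l, the dynamin-like protein that cuts peroxisomes and mitochondria, did not pass (90.1 ± 1.09 CPM after cisplatin and 94.5 ± 2.15 CPM after saline, log2 fold change -0.07, SE 0.05, adjusted p = 0.254). Gdap1 had 0 counts in all libraries. The largest falls were those of the acyl-CoA binding proteins Acbd4 (-1.72) and Acbd5 (-1.13), of which Acbd5 ties peroxisomes to the endoplasmic reticulum, and of the ubiquitin ligase Trim37 (-1.09). The list median was -0.85.

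Of 9 transcription regulators linked to these genes, 7 fell, 1 rose and 1 did not pass. Ppara, the receptor for peroxisome proliferators, fell to 21.6 ± 0.599 CPM after cisplatin, against 91.5 ± 0.234 CPM after saline, and Hnf4a, a receptor that maintains proximal tubule identity, fell to 119.3 ± 1.14 CPM, against 709.1 ± 22.8 CPM. The coactivators Ppargc1a and Ppargc1b had log2 fold changes of -1.52 and -1.20, the receptor Esrra of -0.83, and Rxra, the dimer partner of Ppara, of -0.78. Ppard rose to 5.34 ± 0.0816 CPM after cisplatin, against 2.96 ± 0.249 CPM after saline (log2 fold change 0.86, SE 0.19, adjusted p = 0.000515). Pparg, at 1.65 ± 0.551 CPM after cisplatin and 1.56 ± 0.0587 CPM after saline, did not pass.

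Markers of the cells that hold most renal peroxisomes fell too. All 12 proximal tubule markers fell, with a median log2 fold change of -2.48, and their summed level was 2998.9 and 2963.1 CPM after cisplatin, against 18214.8 and 18445.7 CPM after saline, Lrp2 and Slc34a1 having most counts. None was at 0. Per count of these markers there were 0.478 and 0.468 enzyme counts after cisplatin, against 0.268 and 0.267 after saline, and 0.127 and 0.126 peroxin counts, against 0.032 and 0.0313. Both classes were therefore lower by less than the tubule markers as a sum.

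Other cell types moved too. Of 8 distal nephron markers 6 fell and 2 rose (2156.6 and 2081.5 CPM after cisplatin against 5331.9 and 5465.1 CPM after saline; Umod and Slc12a1 had most counts). Macrophage markers rose in 9 of 10 cases and 1 fell, with sums of 301.9 and 317.6 CPM after cisplatin and 110.5 and 122.3 CPM after saline, with most counts in Cd68 and in Csf1r, the one that fell. All 5 tested of 10 neutrophil markers rose, with sums of 32.9 and 30.1 CPM after cisplatin against 4.11 and 2.91 CPM after saline. Cxcr2 and S100a9 had most counts, and Ly6g, Mpo, Camp and Ngp were at 0 in both saline libraries. S100a8, S100a9, Csf3r and Retnlg passed the filter on low counts through the cisplatin libraries alone. That these tested markers rose was therefore nearly fixed by the filter, whereas Cxcr2 had 52 counts in each saline library. Of 8 endothelial markers 6 rose, 1 fell and 1 did not pass, with sums of 773.0 and 772.6 CPM after cisplatin against 601.9 and 604.9 CPM after saline, with most counts in Kdr, the one that fell, and Flt1. Their part in the changes of peroxisomal genes was not tested.

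Promoter sequences were examined for the genes of the set. RefSeq windows on GRCm38.p6, 250 bases before and 50 after each start site, were found for 27 of the 33 genes, in 35 windows. The direct repeat of AGGNCA with any 1 base between its copies, the form of element bound by Ppara with Rxra, was searched on both strands. It was in none of the 35 windows, and 0.381% of all 32851 windows held it, so these letters are absent from these short windows and nothing follows for sites elsewhere. The dinucleotide CG, present in the 250 bases before the start in 92.1% of all windows, had a median of 6 per window. Of all windows 59.7% held at most 8 CG and 21.7% held at least 18. CG numbered 1 to 8 in the 6 windows of the 4 flavin oxidases, some of which overlap at Dao. In the windows of the 3 ether lipid genes it numbered 21 to 24. Both kinds held genes that fell, since Far1 and Agps, with 21 and 22, had log2 fold changes of -1.97 and -1.48, while Gnpat, with 24, did not pass. The classes overlapped, with 6 to 34 in the peroxins and 1 to 24 in the enzymes.

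Shown here are the 250 bases before the start, 5′ to 3′ on the plus strand with each CG in capitals, for an oxidase, an ether lipid enzyme and a peroxin whose windows hold no annotated exon. They are Ddo (chr10:40629761-40630010, log2 fold change -1.41), Far1 (chr7:113513584-113513833, -1.97) and Pex26 (chr6:121183417-121183666, -0.54), all on GRCm38.p6.
Ddo: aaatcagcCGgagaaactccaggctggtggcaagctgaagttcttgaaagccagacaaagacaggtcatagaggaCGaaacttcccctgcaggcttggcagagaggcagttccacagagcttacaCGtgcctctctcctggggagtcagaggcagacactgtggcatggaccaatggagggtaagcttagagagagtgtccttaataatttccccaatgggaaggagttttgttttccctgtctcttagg
Far1: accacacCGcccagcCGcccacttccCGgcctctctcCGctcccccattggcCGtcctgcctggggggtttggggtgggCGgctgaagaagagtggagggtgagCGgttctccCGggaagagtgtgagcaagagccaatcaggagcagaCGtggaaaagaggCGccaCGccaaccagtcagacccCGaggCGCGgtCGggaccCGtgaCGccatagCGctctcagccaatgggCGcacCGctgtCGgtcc
Pex26: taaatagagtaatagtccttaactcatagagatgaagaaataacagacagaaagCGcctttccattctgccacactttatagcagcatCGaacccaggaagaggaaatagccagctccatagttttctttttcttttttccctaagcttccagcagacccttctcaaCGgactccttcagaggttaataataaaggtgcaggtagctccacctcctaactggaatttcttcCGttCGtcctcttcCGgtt
Ddo has 3 CG in this stretch, Far1 has 21 and Pex26 has 6.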

How the data were processed

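Kidney RNA was measured in 2 cisplatin and 2 saline libraries, from rRNA-depleted directional libraries read as pairs of 150 nt, per the labels' protocols. The authors deposited raw read counts for 29190 genes and FPKM values for 29157 of them. GRCm38, TopHat2, bcl2fastq and edgeR are named per the submitters' processing notes, and for the counting program, its use of strand and its annotation the sources used here give nothing. No column was left unmapped.

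Counts were tested with edgeR 4.0.16 (R 4.3.3): filterByExpr, TMM scaling (factors 1.15 and 1.12 for cisplatin, 0.86 and 0.90 for saline), glmQLFit and the quasi-likelihood F test, with all 4 libraries in 1 fit, which left 2 residual degrees of freedom. P-values were adjusted by Benjamini-Hochberg over 17419 genes and called under 0.05. The standard error follows from the log2 fold change and its F statistic. A floor of 3 counts was 0.111 to 0.145 CPM. Floors and ratios cover counting error only, since no molecular identifiers are mentioned for these PCR-amplified libraries. The biological coefficient of variation was 6.42%, and chi-square per degree of freedom was 11.5 between cisplatin and 36.6 between saline libraries, so replicates differed beyond sampling noise.

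The genes, lists and roles were chosen with earlier results of these data known. All 33 genes are named, and, from the other lists, up to 3 called rises and 3 called falls of at least 5 CPM and the 2 markers with most counts. Cat, Acot5, Far2 and other genes making up counts of 5 or fewer were named after their values were seen. Gene positions and exon overlaps came from GENCODE M21 (99.2% of identifiers matched without version). Alternatives were other scalings, other filters, a replicate block, DESeq2 1.42.0, limma-trend 3.58.1 on log2 FPKM with pseudocounts of 0.1 and 1, and each library left out. All regulators were to be named, and some listed genes are not reported here. Protein targeting signals were not analysed here. Python 3.11.15, scipy 1.17.1 and matplotlib 3.10.9 served for the rest.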

Additional observations from a re-analysis of the deposited data

How the results depend on the processing

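Of the 33 genes, 22 kept their side of the threshold and, where called, their direction under all 13 alternatives. The difference between the class medians, 1.07, stayed between 1.03 and 1.11 when single libraries were left out, and between 1.07 and 1.09 otherwise. The number of genes called lower, 27, was 21 with library size alone and 20 with FPKM at either pseudocount. The number called higher, 1, was 3 with library size alone, 2 with upper-quartile scaling, 2 with FPKM at either pseudocount, 0 with DESeq2 and 0 to 1 with a library left out. For peroxins the number called was 10 and became 6 with library size alone (5 lower, 1 higher) and 5 with FPKM (4 lower, 1 higher), and 1 was higher with upper-quartile scaling. Among enzymes 1 was higher with library size alone, and among membrane proteins 0 were higher with DESeq2 and 0 to 1 with a library left out. The median of the peroxins, -0.54, was -0.17 with library size alone, -0.42 with upper-quartile scaling, -0.26 with FPKM and a pseudocount of 0.1 and -0.23 with 1. That of the enzymes, -1.61, was -1.24, -1.49, -1.34 and -1.32 under these, and -1.64 to -1.57 with a library left out. Over all genes, FPKM gave 3804 and 3784 lower, and library size alone 4207, against 6333. With library size alone 5 genes turned from negative to positive values, Pex19 (0.04), Gnpat (0.24), Pex10 (0.16), Pex11a (0.13) and Acot8 (0.15), of which Gnpat passed as higher. With FPKM and a pseudocount of 0.1 the values of Gnpat (0.14), Pex10 (0.06), Pex11a (0.03) and Acot8 (0.06) were positive without passing, as they were with 1. With library size alone the shifts follow the scaling, which put the median of all genes at 0.41, and for the other alternatives the cause was not tested.

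Cisplatin and saline libraries share replicate numbers, but same-numbered libraries did not deviate together (r = -0.02 across genes). With the replicate number as a block 27 genes were lower and 1 higher, as without it, and 12653 genes were called in place of 12820. Low depth limits Abcd2, with 17 to 45 counts per library, and every other gene of the set had at least 110 counts in each library.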
